A study of Mus musculus with 4 samples.

Results

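Potassium channel genes were followed across 6 brain regions of 8 mice. Members were all features whose name starts with Kcn, which comprises pore-forming subunits, auxiliary subunits and noncoding transcripts of these loci. There were 96 members among 22376 listed features. Levels are described for the 53 members with a mean of at least 0.05 UMIs (unique molecular identifiers, each a captured RNA molecule) per 10000 in the caudate putamen (CP), and the other 43 are counted, and named where they entered a test.

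All 8 mice were male, 3 to 4 months old at the start and of the genotype DAT (iCre/iCre), so that both alleles of the dopamine (DA) transporter locus carried Cre in every group. GqCNO mice (n = 3) had received a Cre-dependent AAV for hM3Dq-mCherry, an excitatory designer receptor, in the midbrain on both sides, and drank CNO, its ligand, at 300 mg/L with 2% sucrose for 1 week. GqVeh mice (n = 3) carried the same virus and drank 2% sucrose. CNO alone mice (n = 2) were not injected and drank CNO with sucrose. All were housed singly with a running wheel. Sections of 10 µm lay on 4 Visium arrays, each with sections of 4 mice: midbrain arrays gave the substantia nigra (SN), the ventral tegmental area (VTA) and the thalamus, while striatal arrays gave the CP, white matter and the lateral septal complex (LSX).

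The authors' discs of each region were averaged per mouse, and 47 such columns were used, GqCNO 801 having no thalamus. Depth per column ran from 7779 to 71906 UMIs in the SN, 25808 to 350222 in the VTA, 80837 to 444790 in the thalamus, 4300381 to 7977003 in the CP, 80525 to 1354667 in the LSX and 119422 to 405313 in white matter. The SN of 2 GqCNO mice rested on 1 disc each. A disc holds several cells, so that fewer cells of a type and less RNA per cell cannot be told apart. The authors chose discs partly by marker genes of these kinds, so that the marker levels are no independent check of the region labels. Dopamine neuron genes summed to between 13.7 and 102.1 UMIs per 10000 in SN and VTA and to at most 2.57 elsewhere, striatal projection neuron genes to at least 81.4 in the CP and at most 9.30 elsewhere, and oligodendrocyte genes to at least 398.7 in white matter and at most 192.8 elsewhere.

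Potassium channels let K+ leave the cell and so set resting potential, spike width and firing rate. Voltage-gated (Kv) channels open on depolarization and are shaped by cytoplasmic beta subunits and, for Kv4, by the calcium-binding KChIP proteins. Inward rectifiers (Kir) and two-pore (K2P) channels hold the membrane near rest, while SK, BK and Slack channels respond to calcium or sodium. In DA neurons, Kv4 with KChIP, SK3 and the GIRK type of Kir are known regulators of pacemaking, and in striatal projection neurons strong inward rectification holds the resting state.

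The members summed to 29.9 ± 3.62 UMIs per 10000 in the CP of the control mice (SD, n = 5), 38.5 ± 6.90 in the thalamus, 18.2 ± 3.02 in the VTA, 17.3 ± 2.54 in the SN, 17.5 ± 1.33 in the LSX and 14.1 ± 2.77 in white matter. Values of different arrays stand side by side here without a test. In the deeply covered CP the coefficient of variation over the 8 mice had a median of 17.3%, from 6.57% for Kcnip2 to 43.2% for Kcna1. Visium counts RNA from its 3′ end, so that values are compared between regions or groups for the same gene and not between genes.

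**Figure D1:**
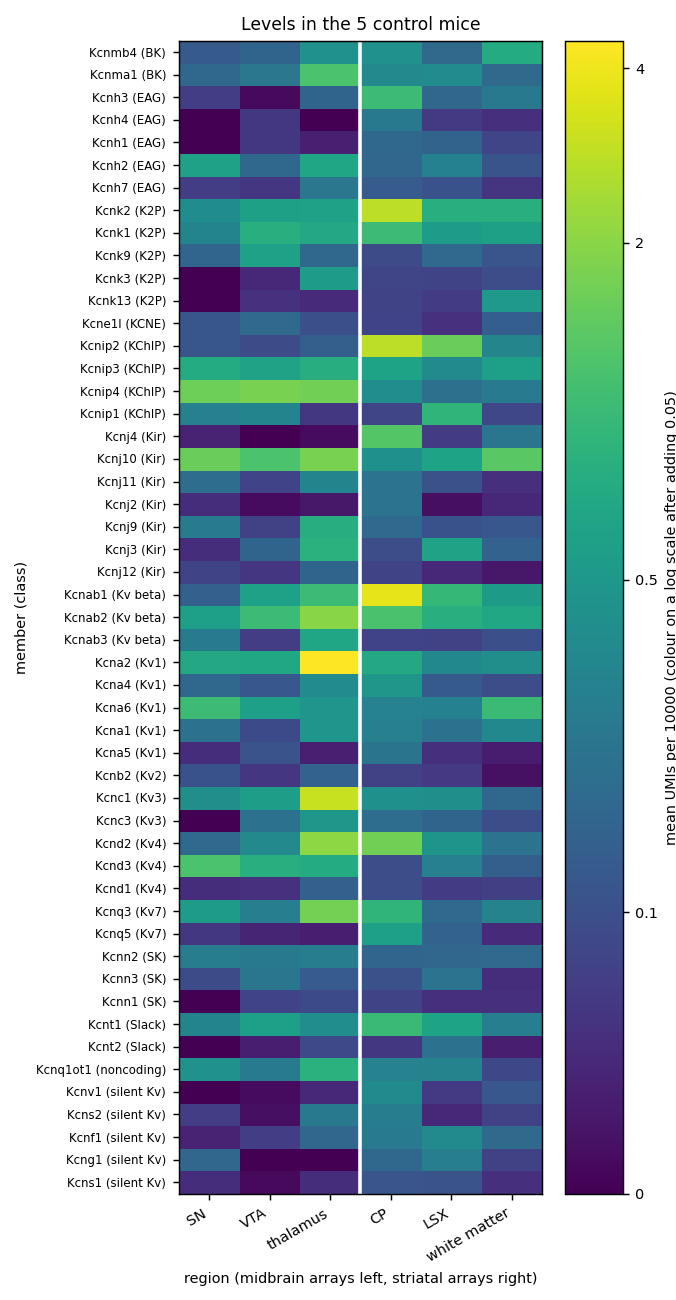
Mean level of 51 members with reported levels in the 5 control mice, as UMIs per 10000 (colour, log scale after adding 0.05), by region (columns, midbrain arrays left of the white line) and by member with its class (rows). The CP column is bright for Kcnab1, Kcnip2 and Kcnk2, and the thalamus column for Kcna2, Kcnc1 and Kcnd2.

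The first comparison asked which channel genes distinguish the CP, the main target of nigral DA axons, from the LSX beside it. Of 44 members tested within the control mice, 19 were higher in the CP (10% of all 9434 genes were) and 8 were higher in the LSX (13.9% of all genes). The test was limma with the mouse as a block on log2(value + 0.1), with Benjamini-Hochberg adjustment over all genes and n = 5 mice. The median difference over the 44 members was 0.45 on the log2 scale, against -0.07 over all genes tested. Differences on this scale understate the change of low genes. The filter was on the mean over the 3 striatal regions, and 10 of the 27 called members had a mean below its limit of 0.1 in 1 of the 2 regions, so that they entered through a region where they were high.

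Kcnj4 encodes Kir2.3, a strong inward rectifier. Its levels in the CP were 1.34, 1.27 and 1.16 UMIs per 10000 in GqVeh 802, 784 and 785 and 1.55 and 1.199 in CNO alone C2W2 and C1W7. In the LSX the same mice had 0, 0.0931, 0.0736, 0.0886 and 0.0493. The groups of values did not overlap, and the log2 difference was 3.16 ± 0.18 (SE, limma adjusted p = 1.83e-10). Kcnj2, the related Kir2.1 gene, averaged 0.228 ± 0.0320 in the CP and 0.00983 ± 0.0104 in the LSX (SD, n = 5), and fell below the limit of 0.1 that the test between striatal regions required.

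The 4 next largest differences towards the CP were those of Kcnh3, Kcnab1, Kcnq3 and Kcnk2. Kcnh3 encodes an ether-a-go-go-like channel (1.04 ± 0.147 against 0.172 ± 0.0842, SD, n = 5), and its log2 difference was 2.12 ± 0.23 (SE). Kcnab1 encodes the beta1 subunit, which speeds inactivation of Kv1 channels, and averaged 3.80 ± 0.415 in the CP against 0.946 ± 0.230. Kcnq3, a subunit of the M-current, averaged 0.903 ± 0.306 against 0.184 ± 0.0838. Kcnk2 encodes the mechanosensitive K2P channel TREK-1 and averaged 2.84 ± 0.542 against 0.794 ± 0.158. Limma adjusted p-values of these 4 lay between 1.80e-08 and 3.44e-06, and each was higher in the CP in 5 of 5 control mice and in 3 of 3 GqCNO mice, which the test did not use.

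Among the members higher in the LSX, Kcnip1 stood first. Kcnip1 encodes KChIP1, a partner of Kv4 channels known from interneurons. Its LSX levels were 0.898, 0.651 and 0.810 UMIs per 10000 in GqVeh 802, 784 and 785 and 1.196 and 0.916 in CNO alone C2W2 and C1W7. Its CP levels in these mice were 0.0786, 0.0614, 0.0677, 0.0911 and 0.0924, all below the lowest LSX value. The log2 difference, CP minus LSX, was -2.46 ± 0.20 (SE, limma adjusted p = 1.99e-08). Kcnip2, which encodes KChIP2, went the other way with 2.81 ± 0.167 in the CP and 1.58 ± 0.169 in the LSX (SD, n = 5).

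Kcng2, a silent Kv subunit that forms channels only together with Kv2, averaged 0.0236 ± 0.00528 in the CP and 0.360 ± 0.0766 in the LSX (SD, n = 5). Kcnj3, the GIRK1 subunit of G protein-gated Kir channels, averaged 0.0953 ± 0.0259 against 0.624 ± 0.269. Kcnt2, a sodium-activated channel, averaged 0.0538 ± 0.00953 against 0.224 ± 0.0895 (log2 difference -1.02 ± 0.22, SE, limma adjusted p = 0.00149). Its relative Kcnt1 was higher in the CP, with 1.004 ± 0.120 against 0.636 ± 0.166. Kcnip1, Kcng2 and Kcnt2 averaged below the filter of 0.1 in the CP and in white matter. They entered this test only through the LSX, where they were high. Kcnd3 (Kv4.3) averaged 0.0953 ± 0.0349 in the CP and 0.306 ± 0.162 in the LSX, whereas Kcnd2 (Kv4.2) averaged 1.69 ± 0.297 in the CP and 0.464 ± 0.102 in the LSX. Kcnd2 and Kcnip2 were thus on the CP side and Kcnd3 and Kcnip1 on the LSX side, and each of the 4 differences passed the test. The other KChIP genes did not pass, with 0.630 ± 0.103 in the CP against 0.379 ± 0.181 for Kcnip3 (limma adjusted p = 0.133) and 0.408 ± 0.0606 against 0.213 ± 0.139 for Kcnip4 (adjusted p = 0.0679). Kcnd1 (Kv4.1), at 0.0945 ± 0.00731 and 0.0614 ± 0.0536, was too low for this test.

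Striatal projection neuron markers were higher in the CP for 8 of 8 genes, oligodendrocyte markers for 8 of 8 and microglia markers for 9 of 10, and astrocyte markers were lower for 5 of 8. The part of these cell types in the channel differences was not tested. GqVeh 784 contributed an LSX of 107462 UMIs, the lowest among the control mice. Without it 27 members passed in this comparison, of which 25 were among the 27 called with all 5 control mice. The counts were 23 and 26 without GqVeh 802 and 785, and 22 and 23 without CNO alone C2W2 and C1W7. Shares over all genes were not computed for these smaller sets of mice.

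**Figure D2:**
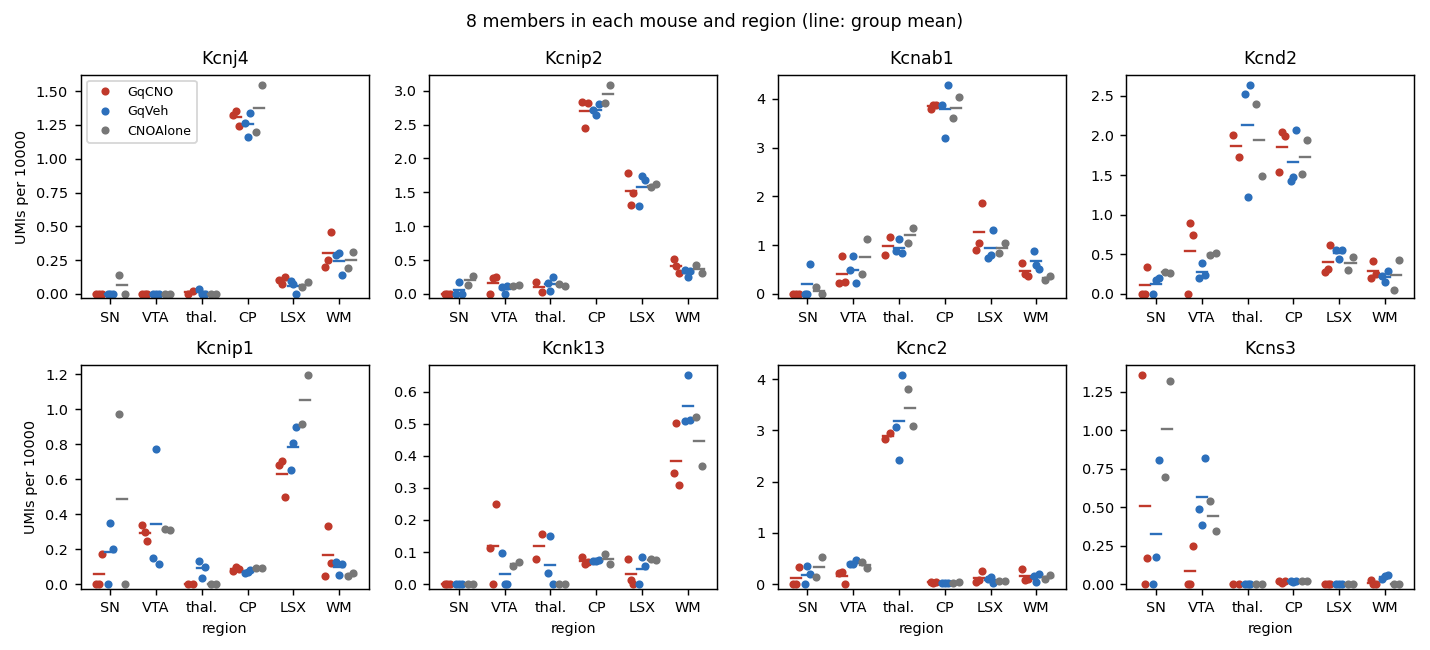
UMIs per 10000 of 8 members in each mouse (points) and region, coloured by group, with a line at each group mean (WM, white matter; thal., thalamus). Kcnj4 lay between 1.16 and 1.55 in the CP of all 8 mice and at most at 0.461 elsewhere, Kcnc2 at 2.42 or more in the thalamus alone, and Kcns3 was at 0 in every thalamus column.

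White matter served as the glial contrast to the CP. Here 25 of the 44 members were higher in the CP (28.7% of all genes) and 5 were higher in white matter (14.9%). The median over the members was 0.72 on the log2 scale, against 0.19 over all genes. Of the 30 called, 11 had a mean below the filter in 1 of the 2 regions. All 8 pan-neuronal markers were higher in the CP (median log2 difference 1.02) and all 8 oligodendrocyte markers lower (median -3.30). Microglia markers were lower in the CP for 6 of 10 genes, astrocyte markers for 5 of 8 and oligodendrocyte precursor markers for 3 of 3. The part of these cell types in the channel differences was not tested.

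Kcnip2 had the largest difference, with 2.81 ± 0.167 UMIs per 10000 in the CP and 0.335 ± 0.0646 in white matter (SD, n = 5; log2 difference 2.76 ± 0.13, SE, limma adjusted p = 1.08e-11). Kcnab1 followed at 2.70 ± 0.19, Kcnd2 at 2.56 ± 0.19, Kcnq5, an M-current subunit, at 2.36 ± 0.24 and Kcnj4 at 2.05 ± 0.18. Each was higher in the CP in 5 of 5 control mice and 3 of 3 GqCNO mice. Kcnj11, the pore of ATP-sensitive channels, averaged 0.227 ± 0.0167 against 0.0420 ± 0.0394.

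Kcnk13, which encodes the K2P channel THIK-1 known from microglia, was the member most enriched in white matter. Its white matter levels were 0.511, 0.508 and 0.651 UMIs per 10000 in GqVeh 802, 784 and 785 and 0.368 and 0.522 in CNO alone C2W2 and C1W7. In the CP these mice had 0.0765, 0.0715, 0.0730, 0.0626 and 0.0924. The values did not overlap (CP minus white matter -1.79 ± 0.20 on the log2 scale, SE, limma adjusted p = 6.33e-07). Kcnk13 averaged below the filter of 0.1 in the CP and in the LSX. It entered this test only through white matter, where it was high. Kcnc4 (Kv3.4) averaged 0.366 ± 0.107 against 0.0520 ± 0.0220, Kcnj10, the Kir4.1 channel of astrocytes and oligodendrocytes, 1.37 ± 0.516 against 0.428 ± 0.0694, and Kcna6 (Kv1.6) 1.02 ± 0.290 against 0.316 ± 0.0345.

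Kcnmb4, the neuronal BK beta4 subunit, was the smallest of the 5 differences towards white matter (log2 difference -0.60 ± 0.22, SE, limma adjusted p = 0.0339). Its call was lost without GqVeh 802 (adjusted p = 0.0586), without GqVeh 785 (adjusted p = 0.0778) and without CNO alone C2W2 (adjusted p = 0.0945). It was lost also in all 8 mice (adjusted p = 0.121). In all, 5 of 12 alternatives lost it.

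The sequence before the transcription start is shown for 4 genes at the extremes of this comparison, as the 2 members most enriched on either side among those with 1 entry in the table of RefSeq promoters. They are 250 bases ending just before that entry's start (GRCm38.p6), 5′ to 3′ on the gene's strand, with the GC box GGGCGG in capitals on either strand. The Kcnd2 window ends where the RefSeq gene begins. The windows of Kcnip2, Kcnk13 and Kcnc4 lie inside the gene, with starts 359, 1350 and 1389 bases after its first base, so that these genes have a start further upstream.
Kcnip2, chr19:45816064-45816313, minus strand: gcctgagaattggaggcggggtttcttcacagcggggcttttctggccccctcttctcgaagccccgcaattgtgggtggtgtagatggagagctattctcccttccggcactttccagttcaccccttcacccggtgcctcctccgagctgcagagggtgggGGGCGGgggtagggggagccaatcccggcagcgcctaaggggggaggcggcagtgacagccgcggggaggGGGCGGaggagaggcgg
Kcnd2, chr6:21215096-21215345, plus strand: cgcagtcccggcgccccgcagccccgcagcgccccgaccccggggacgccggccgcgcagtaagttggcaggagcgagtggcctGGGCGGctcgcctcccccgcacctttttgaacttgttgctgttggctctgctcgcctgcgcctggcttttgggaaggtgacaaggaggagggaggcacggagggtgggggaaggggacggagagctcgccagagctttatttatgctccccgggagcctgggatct
Kcnk13, chr12:99964249-99964498, plus strand: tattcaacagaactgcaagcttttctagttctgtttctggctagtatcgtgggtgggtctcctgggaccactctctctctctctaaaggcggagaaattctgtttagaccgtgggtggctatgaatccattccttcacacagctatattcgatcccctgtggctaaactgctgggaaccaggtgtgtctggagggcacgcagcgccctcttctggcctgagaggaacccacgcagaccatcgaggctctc
Kcnc4, chr3:107458899-107459148, minus strand: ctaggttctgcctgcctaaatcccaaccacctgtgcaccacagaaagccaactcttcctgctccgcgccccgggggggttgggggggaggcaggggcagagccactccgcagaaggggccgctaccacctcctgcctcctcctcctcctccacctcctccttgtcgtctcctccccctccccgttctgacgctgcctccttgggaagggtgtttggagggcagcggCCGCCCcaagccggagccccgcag

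Kcnip2 held 2 GC boxes, Kcnd2 and Kcnc4 held 1 each, and Kcnk13 held none. The G+C content was 66.8%, 68.8%, 68.0% and 52.8% for Kcnip2, Kcnd2, Kcnc4 and Kcnk13, against a median of 52.4% over 32412 promoters of the same length. A GC box was present in 33.1% of all promoters and in 44.3% of the 97 promoters of 72 members. The TATA box TATAAA and the cAMP response element TGACGTCA, searched on both strands, were in none of the 4 and in 12.3% and 1.56% of all promoters. Neither motif overlaps the GC box. These matches describe letters in a window and do not show a bound factor.

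**Figure D3:**
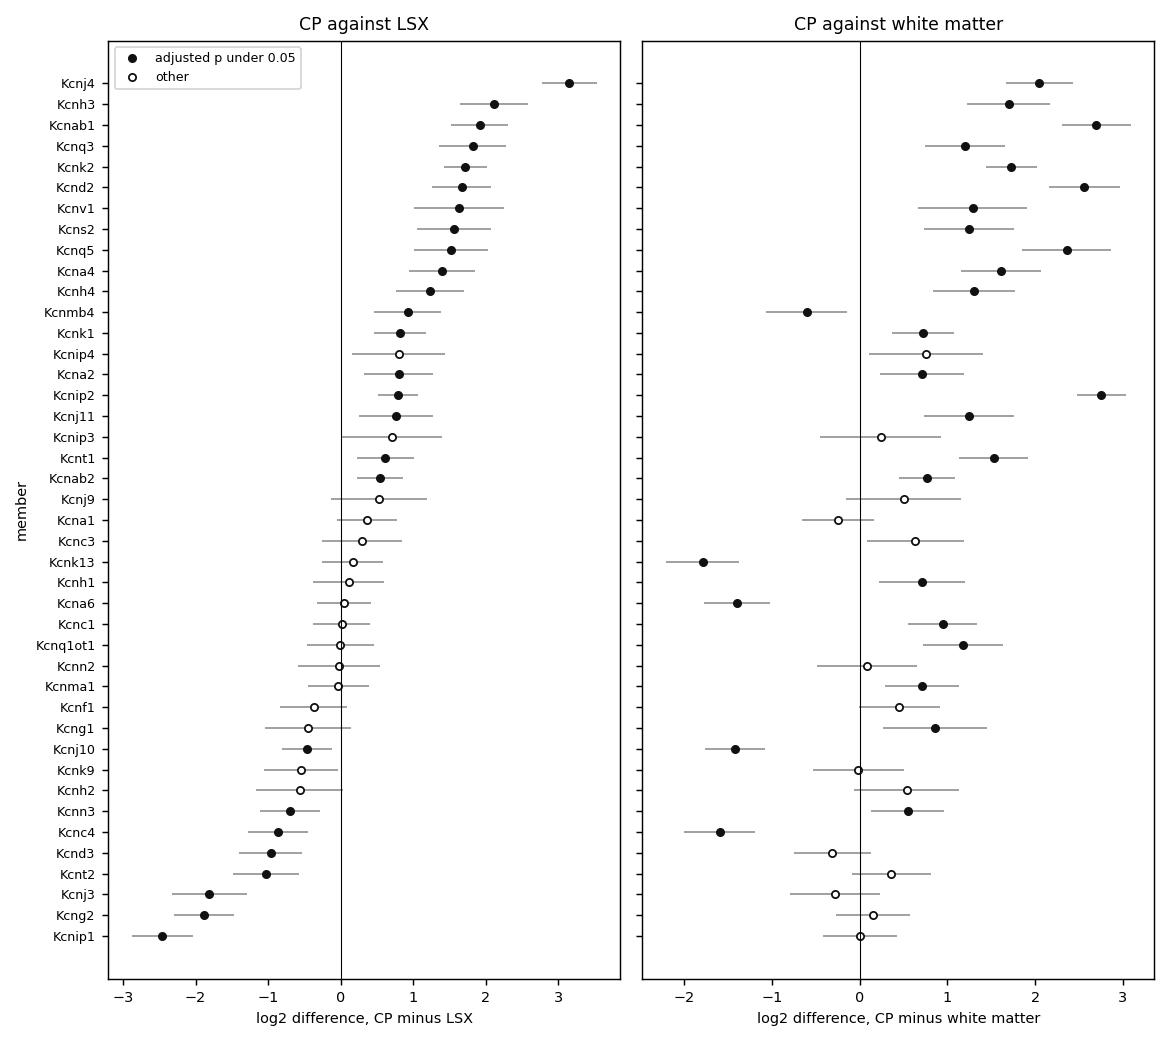
Log2 difference of 42 members between the CP and the LSX (left) and between the CP and white matter (right) in the 5 control mice, with 95% confidence intervals as lines. Filled points passed an adjusted p of 0.05 and members are ordered by the left panel, from Kcnip1 at the bottom to Kcnj4 at the top.

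Between the LSX and white matter, 19 members were higher in the LSX (36.5% of all genes) and 8 in white matter (14.2%), and 10 of these 27 had a mean below the filter in 1 of the 2 regions. Kcnip1 led on the LSX side (log2 difference 2.47 ± 0.20, SE, limma adjusted p = 8.44e-09), before Kcng2 (2.04 ± 0.20), Kcnip2 (1.96 ± 0.13), Kcnj3 (1.53 ± 0.25) and Kcnt2 (1.39 ± 0.22). Kcnn3, the SK3 channel, averaged 0.228 ± 0.0395 in the LSX and 0.0401 ± 0.0264 in white matter (SD, n = 5), and it also was higher in the LSX than in the CP (0.103 ± 0.0278). On the white matter side stood Kcnk13 (-1.96 ± 0.20), Kcnmb4 (-1.53 ± 0.22), Kcna6 (-1.44 ± 0.18), Kcnj4 (-1.11 ± 0.18) and Kcnj10 (-0.96 ± 0.17). Kcnip1, Kcng2 and Kcnt2 entered this test only through the LSX, and Kcnk13 only through white matter. Kcnj4 averaged 0.245 ± 0.0745 in white matter against 0.0609 ± 0.0381 in the LSX. Striatal projection neuron markers also were higher in white matter than in the LSX for 4 of 8 genes, and their part in the Kcnj4 value was not tested.

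In the midbrain, the question was which channel genes set the DA neuron regions apart from the thalamus on the same arrays. Of 29 members tested, 1 was higher in the SN than in the thalamus (6.47% of all 6401 genes) and 12 were lower (10.9%). In the VTA 2 were higher (6.78%) and 10 lower (7.45%). Of these, 7 of 13 for the SN and 6 of 12 for the VTA had a mean below the filter of 0.25 in 1 of the 2 regions and entered through a region where they were high. The median log2 difference of the members was -0.58 in the SN and -0.53 in the VTA, against -0.04 and 0.02 over all genes. Pan-neuronal markers were lower than in the thalamus for 5 of 8 genes in the SN and 1 of 8 in the VTA, and their part was not tested.

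The Kv3 genes Kcnc1 and Kcnc2, whose channels permit fast spiking, and Kcna2 (Kv1.2), an axonal Kv1 channel, had the largest differences in both regions. Kcnc2 reached 4.08, 3.06 and 2.42 UMIs per 10000 in the thalamus of GqVeh 802, 784 and 785 and 3.09 and 3.80 in CNO alone C2W2 and C1W7. In the SN the same mice had 0.202, 0, 0.351, 0.528 and 0.139, and in the VTA 0.468, 0.392, 0.388, 0.309 and 0.428. Every thalamus value lay above every SN and VTA value, and the log2 differences were -2.38 ± 0.25 in the SN (SE, limma adjusted p = 5.52e-09) and -2.06 ± 0.25 in the VTA (adjusted p = 1.25e-07). Kcna2 averaged 4.46 ± 2.08 in the thalamus, 0.703 ± 0.569 in the SN and 0.697 ± 0.2503 in the VTA (SD, n = 5). Kcnc1 averaged 3.05 ± 1.19, 0.410 ± 0.259 and 0.574 ± 0.284.

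Kcnd2, the Kv4.2 gene, had a log2 difference of -1.88 ± 0.26 (SE) between the SN and the thalamus, where it averaged 2.06 ± 0.650 against 0.184 ± 0.111 (SD, n = 5). Kcnma1, the BK pore, averaged 1.22 ± 0.376 in the thalamus against 0.177 ± 0.268 in the SN and 0.2501 ± 0.164 in the VTA. Kcnq3 had a log2 difference of -1.50 ± 0.26 between the VTA and the thalamus and -1.12 ± 0.26 between the SN and the thalamus. Kcnj3 and Kcnj9 also passed in both regions. Kcnab1 and Kcnab2 passed for the SN and not for the VTA, and Kcnab3 for the VTA and not for the SN. No difference between SN and VTA passed for these 3 genes.

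Kcns3, a silent subunit that joins Kv2 channels, was the member higher in both DA regions. Its SN levels were 0.807, 0 and 0.176 UMIs per 10000 in GqVeh 802, 784 and 785 and 1.32 and 0.695 in CNO alone C2W2 and C1W7. Its VTA levels were 0.820, 0.491, 0.388, 0.343 and 0.542 in these mice, and no UMI was found in the thalamus of any mouse. Against a floor of 3 UMIs over the control thalamus, the mean level was 20.9 times that floor in the SN and 18.0 times in the VTA. These ratios bound the thalamus value only and leave out the spread between mice. The control means were 0.600 ± 0.527 in the SN and 0.517 ± 0.187 in the VTA (SD, n = 5). Kcns3 passed the filter only through the SN and VTA, where it had to be higher. The limma adjusted p was 0.00651 for the SN and 0.00630 for the VTA, and it was 0.0646 for the SN without CNO alone C2W2 and 0.0533 for the VTA without GqVeh 802. In all, the call was lost in 1 of 11 alternatives for the SN and 2 of 11 for the VTA.

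Kcnk9, the K2P channel TASK-3, averaged 0.610 ± 0.265 in the VTA and 0.175 ± 0.131 in the thalamus (SD, n = 5; limma adjusted p = 0.0444). This call was lost without GqVeh 802 (adjusted p = 0.0506), without GqVeh 784 (adjusted p = 0.0810), without CNO alone C2W2 (adjusted p = 0.291) and without CNO alone C1W7 (adjusted p = 0.128). In all, 6 of 11 alternatives lost it. The SN and thalamus means of Kcnk9 were both below the filter. Kcnk9 thus entered this test only through the VTA, where it had to be higher.

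**Figure D4:**
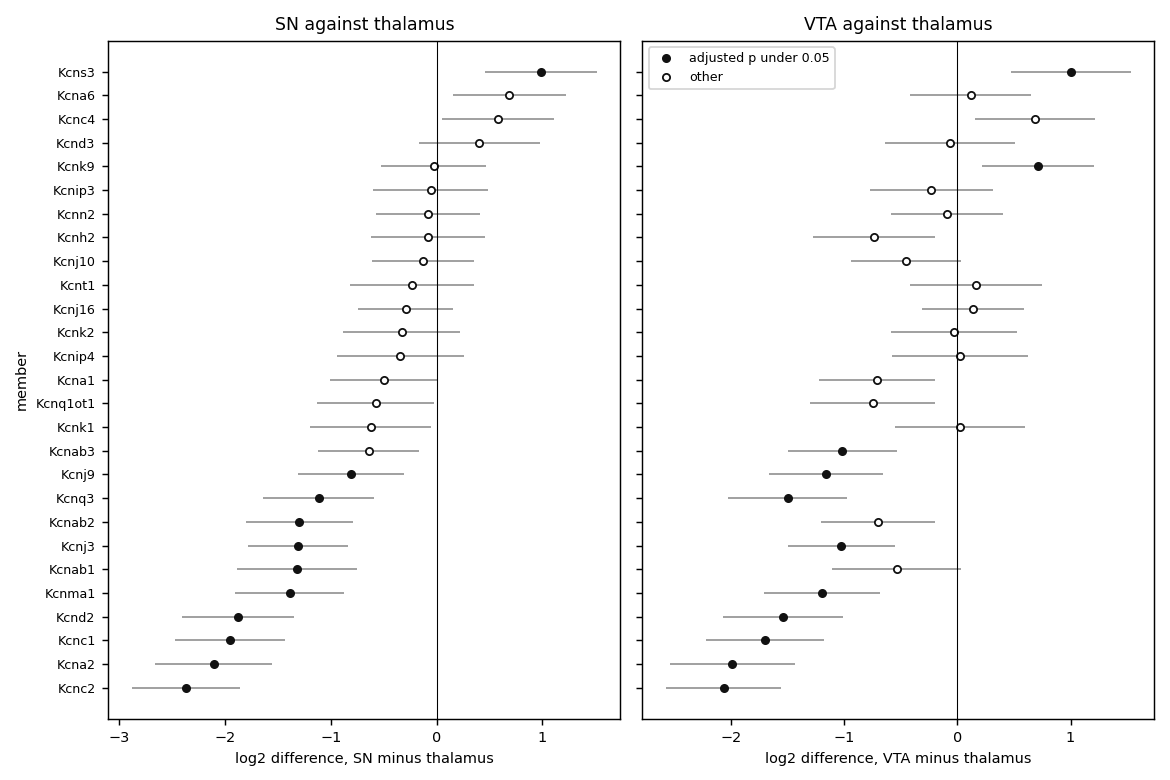
Log2 difference of 27 members between the SN and the thalamus (left) and between the VTA and the thalamus (right) in the 5 control mice, with 95% confidence intervals as lines. Filled points passed an adjusted p of 0.05. Kcns3 is at the top and Kcnc2 at the bottom of both panels.

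Several members known for DA neurons were at low levels. Kcnj6, which encodes the GIRK2 subunit, had 27 UMIs in all columns together, of which 3 were in the SN and 15 in the LSX. These regions differed in depth, with 308795 UMIs in the SN columns and 5378942 in the LSX columns. Per 10000, the control means of Kcnj6 were 0.1335 ± 0.2289 in the SN and 0.0235 ± 0.0169 in the LSX (SD, n = 5). Kcnj6 had 0 of 1252773 UMIs in the VTA, which allows a level of up to 0.0240 UMIs per 10000. Kcnj5 (GIRK4) had 14 UMIs in all, of which 3 were in the VTA and 0 in the SN. The other GIRK genes were present in the thalamus: Kcnj3 averaged 0.842 ± 0.221 there (SD, n = 5) against SN and VTA means of 0.0404 ± 0.0902 and 0.164 ± 0.141, and Kcnj9 (GIRK3) averaged 0.783 ± 0.238 against 0.270 ± 0.330 and 0.0693 ± 0.0517.

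Kcnd3 and Kcnip4, which form the Kv4.3 and KChIP4 complex, did not pass between any of the midbrain regions. For the SN, VTA and thalamus, Kcnd3 averaged 1.21 ± 0.488, 0.785 ± 0.467 and 0.745 ± 0.106 (SD, n = 5), and Kcnip4 averaged 1.63 ± 1.60, 1.78 ± 0.557 and 1.69 ± 0.125. In the CP the same genes averaged 0.0953 ± 0.0349 and 0.408 ± 0.0606. Kcnn3 (SK3) averaged 0.0932 ± 0.130 (SN) and 0.242 ± 0.156 (VTA) and missed the limit of 0.25 for a test in the midbrain, as did Kcnj11 with 0.202 ± 0.220 and 0.0733 ± 0.0828. Kcnn2 (SK2) averaged 0.288 ± 0.360, 0.258 ± 0.289 and 0.285 ± 0.156 in the SN, VTA and thalamus. The glial Kir pair Kcnj10 and Kcnj16 averaged 1.60 ± 0.498 and 0.138 ± 0.148 in the SN.

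No member differed between the SN and VTA at an adjusted p of 0.05 in limma (0 of 29), where 0% of all genes were higher and 0.0312% lower in the SN. At an unadjusted p under 0.05 there were 7 of the 29 members (8.87% of all genes), and edgeR's quasi-likelihood test on the recovered UMIs also called 0, with 6 unadjusted (4.7% of all genes). In simulated data of this depth, 54% of genes changed 4-fold and 14% of genes changed 2-fold were recovered between SN and VTA. Of the 85 simulated calls, 17 were false, a larger share than the adjusted p of 0.05 allows. False calls were 9 of 81 between SN and thalamus, 1 of 132 between CP and LSX and 2 of 139 between CP and white matter.

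The next comparison asked whether 1 week of chronic DA neuron activation was accompanied by altered channel expression. In the VTA no member passed in limma (0 of 21 tested, 1.52% of all 6312 genes did), and 5 members had an unadjusted p under 0.05 (10.8% of all genes did), all 5 lower in GqCNO (5.99% of all genes were). The median over the 21 members was -0.29 on the log2 scale, against -0.06 over all genes, and 18 of 21 were below 0, as were 56.8% of all genes. The edgeR test called 1 member, Kcns3 (adjusted p = 0.0139, lower in GqCNO; 2.25% of all genes were called), and had 5 at an unadjusted p under 0.05 (9.43% of all genes).

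Kcns3 levels in the VTA were 0, 0.249 and 0 UMIs per 10000 in GqCNO 801, 804 and 781, from 0, 1 and 0 UMIs. GqVeh 802, 784 and 785 had 0.820, 0.491 and 0.388, and CNO alone C2W2 and C1W7 had 0.343 and 0.542. All GqCNO values lay below all control values, and the log2 difference was -0.81 (95% interval -1.37 to -0.26, limma adjusted p = 0.188). The GqCNO mean of 0.0829 was below the filter of 0.25, so that Kcns3 entered this test through the controls (mean 0.517), where it was high, and it is named for its small p-value. Over the alternatives the adjusted p ran from 0.0139 to 0.544.

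Kcnk1 encodes the K2P channel TWIK-1. Its VTA levels were 0.360, 0 and 0.112 UMIs per 10000 in GqCNO 801, 804 and 781, 1.05, 0.442 and 1.55 in GqVeh 802, 784 and 785, and 0.343 and 0.542 in CNO alone C2W2 and C1W7. Kcnk1 likewise entered through the controls, with means of 0.157 in GqCNO and 0.786 in controls. The highest GqCNO value lay above the lowest control value, and the log2 difference was -0.92 (95% interval -1.54 to -0.31, limma adjusted p = 0.175). Among the others were Kcnab2, a Kv beta subunit (log2 difference -0.85, 95% interval -1.47 to -0.23), and Kcna2 (-0.58, -1.15 to -0.01), with limma adjusted p-values of 0.244 and 0.448. All 5 differences had the same sign within each array pair, with Kcna2 at -0.95 and -0.16. The 5 members were picked for small p-values in these same mice, so that this agreement adds no support.

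Cell marker lists also differed between GqCNO and controls in the VTA. The dopamine neuron list was lower for 6 of 8 genes, with sums of 13.7 to 41.8 UMIs per 10000 in GqCNO and 56.02 to 86.7 in controls. Pan-neuronal markers passed as lower for 2 of 8, with sums of 21.1 to 41.4 against 41.5 to 75.6. Microglia markers were higher for 6 of the 9 tested, with sums of 27.5 to 70.4 against 3.85 to 20.8, and astrocyte markers for 2 of 8, with 22.9 to 30.1 against 9.30 to 16.0. Their part in the channel values was not tested. Without GqCNO 804, whose VTA had 0 UMIs of Kcnk1, Kcnab2, Kcnk1 and Kcns3 still had an unadjusted p under 0.05, 3 of the 5 (6.9% of all genes then had), and the methods' t-test gave 3 members (9.85% of all genes).

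In the SN no member passed in limma (0 of 19 tested, 0.648% of all 6174 genes did), and 1 had an unadjusted p under 0.05 (7.82% of all genes). That member was Kcne1l, an auxiliary KCNE subunit. Its levels were 2.57, 1.03 and 1.36 UMIs per 10000 in GqCNO 801, 804 and 781, from 2, 6 and 2 UMIs. GqVeh 802, 784 and 785 had 0, 0 and 0.176, and CNO alone C2W2 and C1W7 had 0.264 and 0.139. All GqCNO values lay above all control values (log2 difference 1.76, 95% interval 0.66 to 2.87, limma adjusted p = 0.172). The control mean of 0.116 was below the filter of 0.25, so that Kcne1l entered this test only through the GqCNO mice, where it was high. Without GqCNO 801 or 781, each with 1 disc, the adjusted p was 0.424 or 0.135. In the SN, dopamine neuron markers were lower for 4 of 8 genes and pan-neuronal markers for 1 of 8, with pan-neuronal sums of 20.6 to 27.9 UMIs per 10000 in GqCNO and 34.35 to 63.97 in controls. Blood cell markers were higher for 3 of the 4 tested, microglia markers for 2 of 9 and astrocyte markers for 1 of 8. No vascular cell marker passed, and GqCNO 801, which had the highest Kcne1l value, had a vascular sum of 23.1 against at most 7.47 in every other mouse. The part of these cell types was not tested. In the VTA the same gene had 0.360, 0 and 0 in these GqCNO mice, against 0.0686 to 0.388 in the controls.

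The next SN members by p-value were Kcna6 (log2 difference -1.04, 95% interval -2.13 to 0.06), Kcnip4 (-0.89, -1.96 to 0.18) and Kcnq3 (-0.76, -1.82 to 0.29), with limma adjusted p-values of 0.654, 0.706 and 0.735. For none of the 19 SN members did the interval stay within 1 unit on the log2 scale, and in simulated data of this depth 25% of 4-fold and 5% of 2-fold changes were recovered, so that differences of such sizes were not detectable for most members. In the VTA the interval stayed within 1 unit for 14 of 21, and 38% of 4-fold and 9% of 2-fold changes were recovered in simulated data. Of the simulated calls, 5 of 35 were false in the SN and 1 of 48 in the VTA. The edgeR test and the methods' t-test with Benjamini-Hochberg adjustment also called 0 members in the SN, each with 1 at an unadjusted p under 0.05 (8.1% of all genes with edgeR and 7.52% with the methods' t-test).

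The CP gave the tightest values. No member passed in limma (0 of 53 tested, 0% of all 10813 genes did), and 3 had an unadjusted p under 0.05 (3.7% of all genes). The interval of the log2 difference stayed within 1 unit for 52 of 53 members, and the median half-width was 0.28. In simulated data of this depth 96% of 2-fold changes were recovered, and 10 of 198 calls were false. The edgeR test and the methods' t-test with adjustment called 0 members, each with 4 at an unadjusted p under 0.05 (3.64% and 4.42% of all genes).

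Kcnf1, a silent Kv subunit, had the smallest p-value. Its CP levels were 0.210, 0.207 and 0.194 UMIs per 10000 in GqCNO 801, 804 and 781, 0.274, 0.248 and 0.241 in GqVeh 802, 784 and 785, and 0.321 and 0.253 in CNO alone C2W2 and C1W7. All GqCNO values were below all control values, with a log2 difference of -0.32 (95% interval -0.54 to -0.10, limma adjusted p = 0.999). The exact permutation test, two-sided, gave p = 0.0179, the smallest that 56 splits allow, which restates that separation for a member named for its small p-value. Kcnj2 (Kir2.1) averaged 0.178 ± 0.0146 in GqCNO (SD, n = 3) and 0.228 ± 0.0320 in controls (SD, n = 5), and Kcnab3, the beta3 subunit, 0.105 ± 0.0254 against 0.0728 ± 0.0155. Kcna6 followed with 0.391 ± 0.0757 against 0.316 ± 0.0345.

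The members enriched in the CP showed small differences. The log2 difference between GqCNO and controls was 0.01 for Kcnj4 (95% interval -0.23 to 0.25), -0.06 for Kcnip2 (-0.27 to 0.15), 0.02 for Kcnab1 (-0.22 to 0.27), 0.01 for Kcnk2 (-0.37 to 0.39), 0.14 for Kcnd2 (-0.20 to 0.47) and 0.08 for Kcnh3 (-0.18 to 0.33). Among members of other classes, Kcnt1 was at -0.10 (-0.32 to 0.13), Kcnma1 at -0.08 (-0.47 to 0.31), Kcnv1, a silent subunit, at 0.03 (-0.20 to 0.25), Kcnn2 at 0.23 (-0.01 to 0.48) and the noncoding RNA Kcnq1ot1, which lies antisense to Kcnq1, at 0.06 (-0.45 to 0.57). All of these intervals lay within 1 unit on the log2 scale.

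**Figure D5:**
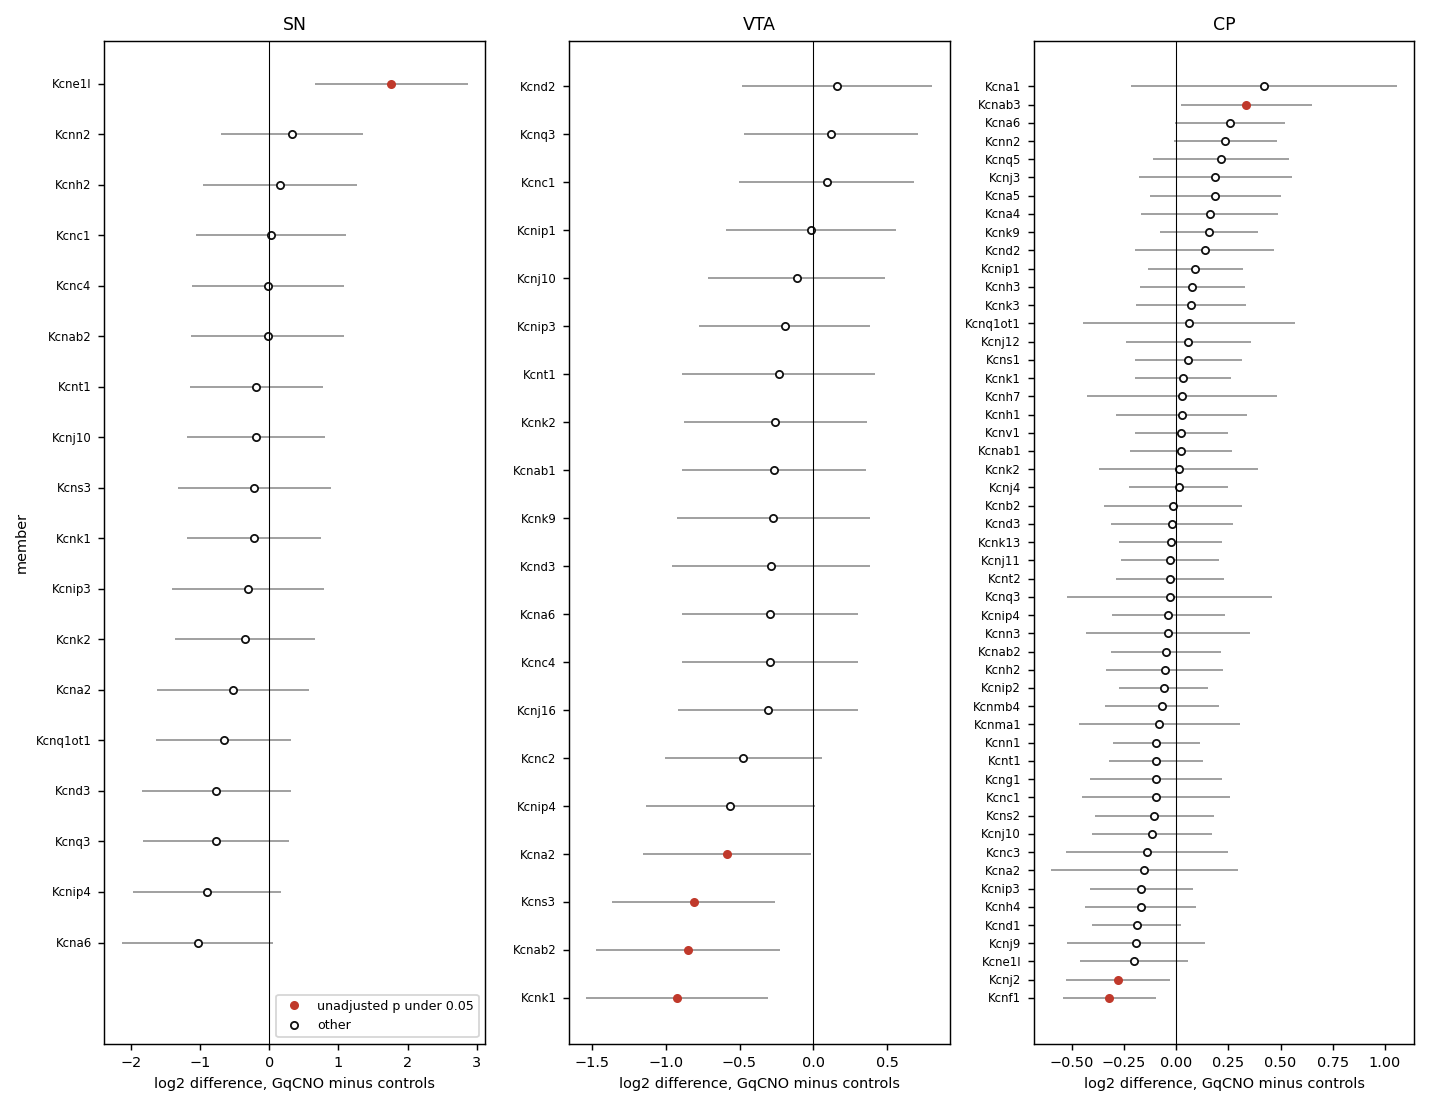
Log2 difference between GqCNO and all controls for members tested in the SN (18 shown), VTA (20 shown) and CP (51 shown), with 95% confidence intervals as lines. Red points had an unadjusted p under 0.05: Kcne1l in the SN, 4 of those shown on the lower side in the VTA and 3 in the CP. The axes differ in scale between panels.

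The 2 control groups were also taken apart, and these comparisons share the GqCNO or control mice with those above. No member passed in limma in any of them. In the SN 0.194% of all genes passed against GqVeh, 0.615% against CNO alone and 0.0648% between GqVeh and CNO alone. The same shares were 0.475%, 1.12% and 0.0792% for the VTA and 0.0462%, 0% and 0% for the CP. At an unadjusted p under 0.05 the SN had 1, 2 and 0 of 19 members (6.09%, 6.06% and 1.46% of all genes). The VTA had 4, 1 and 0 of 21 (10.9%, 6.1% and 2.04%), and the CP 3, 4 and 3 of 53 (4.04%, 2.52% and 3.68%). Kcnk1 against GqVeh in the VTA had the smallest adjusted p (0.130, log2 difference -1.17), and Kcne1l in the SN had a log2 difference of 1.90 with GqVeh and of 1.56 with CNO alone as the control.

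In the control regions no member passed in limma either. In the thalamus 0% of genes passed (3.34% at an unadjusted p under 0.05) with 0 of 32 members at an unadjusted p, in the LSX 0% (3.24%) with 1 of 42 and in white matter 0.0445% (2.76%) with 1 of 37. The LSX member was Kcng2, with 0.565, 0.994 and 0.476 UMIs per 10000 in GqCNO 801, 804 and 781 and 0.290, 0.279, 0.417, 0.362 and 0.453 in GqVeh 802, 784 and 785 and CNO alone C2W2 and C1W7 (limma adjusted p = 0.918). GqCNO 804 had the shallowest LSX column, with 80525 UMIs. The white matter member was Kcnk2 (log2 difference -0.71, 95% interval -1.42 to -0.00366).

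Whether the response differed between the SN and VTA was tested on the difference of the 2 regions per mouse. Of 15 members tested, 0 passed in limma and 0 had an unadjusted p under 0.05 (5.45% of all 5341 genes had), the smallest adjusted p being 0.894. Kcnq3 had the smallest p-value, with a difference of -0.88 ± 0.53 (SE) on the log2 scale.

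Of the 20 channel partner genes listed, which comprise auxiliary subunits, scaffolds and a G protein subunit, none passed for GqCNO against controls in the SN (12 tested), VTA (14) or CP (15), with medians of -0.59, -0.26 and -0.02 on the log2 scale, against -0.08, -0.06 and -0.00108 over all genes. The partner genes summed to between 10.97 and 14.1 UMIs per 10000 in the SN of the GqCNO mice and to between 16.3 and 18.6 in the controls, without overlap. Of the 19 partner genes found, 14 and 11 were at 0 in GqCNO 801 and 781, whose SN rested on 1 disc each. Pan-neuronal sums in the SN did not overlap either (20.6 to 27.9 against 34.35 to 63.97), and their part was not tested. In the VTA the ranges of the partner sums overlapped (11.1 to 15.65 and 14.2 to 19.8). Between regions 14 were tested. Ank3, the ankyrin that anchors channels at the axon initial segment, was lower in the SN (log2 difference -1.48 ± 0.26, SE, limma adjusted p = 6.54e-05) and in the VTA (-1.40 ± 0.26) than in the thalamus, and Cntn2 was lower in the SN (-1.04 ± 0.29). Dpp10, a Kv4 auxiliary subunit, was higher in the LSX than in the CP (CP minus LSX -2.10 ± 0.30) and higher in the LSX than in white matter (2.46 ± 0.30), the same directions as Kcnip1. Of the 14, 8 were higher in the CP than in white matter (28.7% of all genes were). Only 1 was lower (14.9% of all genes), namely Cntn2, a partner of Kv1 channels on myelinated axons (-2.08 ± 0.24). Pan-neuronal markers were higher in the CP for 8 of 8 genes, and their part in the partner values was not tested.

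Among the 43 members below the reported level, Kcnc2, Kcnc4, Kcnj16 and Kcns3 entered the tests in the midbrain and Kcnc4 and Kcng2 those between striatal regions. For GqCNO against controls, Kcnc4, Kcng2, Kcnj16 and Kcnk12 entered the test in the LSX, and Kcnc2 and Kcnc4 that in white matter. Tests of any kind covered 59 members, and the 37 tested in no comparison, among them Kcnj5, Kcnj6 and Kcnrg, had between 0 and 251 UMIs over all columns.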

How the data were processed

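The deposited values are a signal per gene, a median-normalized average over the discs of a region and mouse, which the authors made with Space Ranger on mm10 (version not given in the sources used here) after choosing discs by position and marker genes and leaving out discs rich in astrocyte or microglia genes. Arrays were normalized separately by the authors, so tests stayed within midbrain or striatal arrays. Whether counting used strand is not given in the sources used here, so that antisense transcripts such as Kcnq1ot1 are uncertain. All low values were whole multiples of the worth of 1 UMI within 0.05 steps, from which UMI totals were recovered.

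Each of 47 columns was rescaled to 10000. Tests used limma 3.58.1 in R 4.3.3 with a trend, on log2(value + constant) with Benjamini-Hochberg adjustment over all genes tested. The constant and the filter on the mean were 0.5 and 0.25 in the SN, VTA and thalamus, 0.05 and 0.05 in the CP, and 0.1 and 0.1 in the LSX, white matter and between striatal regions. GqCNO was compared with all controls and with each control group. Regions were compared in the 5 control mice with the mouse as a block. Exact permutation tests over 56 splits were two-sided. Alternatives were edgeR 4.0.16 on the recovered UMIs, the methods' t-test, other scalings, constants and filters, the array pair as a block, all 8 mice, and leaving out each mouse in turn. One count, of members on the lower side in the VTA at an unadjusted p under 0.05, was added after seeing the data. Scripts were tested on simulated data. Each mouse gave 1 value per region. The limma tests set a difference against the spread of these values between mice, which includes counting error. They moderate the variance of a gene with those of all genes tested and do not weight columns by depth. Limits from a count of 0 use 3 UMIs and cover counting error only.

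Members, gene lists and tests were chosen with earlier results of these data known. Named members were those with the smallest p-values for GqCNO in the SN, VTA and CP, those with the 5 largest called differences per region pair and direction, the highest in the CP of each class, and a fixed list known from dopamine neurons, striatal neurons or glia. Of the 96 members, 95 matched a RefSeq gene by symbol. Results of 2 members are not reported here by name and are left out of the figures, while the counts include them.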

Additional observations from a re-analysis of the deposited data

Results flagged for a closer look

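In 43 differences between regions, each checked over the 5 control mice, 2 had a mouse apart from the other 4 by Dixon's ratio (limit 0.71). Chance gives such a mouse in about 1 of 20 groups. For Kcnmb4 between the LSX and white matter, GqVeh 784 had a log2 difference of -2.89, against -1.37 to -0.95 in the others (ratio 0.781). For Kcnc1 between the VTA and thalamus, CNO alone C2W2 had -1.14, against -1.88 to -1.79 (ratio 0.877).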

How the results depend on the processing

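No difference of a named member reversed under the alternatives run. For the region differences of named members, 478 alternatives kept their side of the threshold and 14 lost it, all for Kcns3, Kcnk9 and Kcnmb4. Members not named also lost calls: between CP and LSX 21 of 27 were shared without CNO alone C2W2 and 22 of 27 without GqVeh 802. For GqCNO against controls 145 kept it and 1, Kcns3 in the VTA under edgeR, newly passed, so that the VTA count was 1 under edgeR against 0. With a filter 4 times as high, which tests fewer members, the counts were 5 between SN and thalamus, 4 between VTA and thalamus, 14 between CP and LSX, 16 between CP and white matter and 10 between LSX and white matter, against 13, 12, 27, 30 and 27. Under edgeR, 19 members passed between VTA and thalamus, among them the 12 called in limma, and the cause was not tested. Shares over all genes were not computed for the higher filter or for this edgeR test. These counts can therefore not be set against a general change in calls. The 5 VTA members on the lower side at an unadjusted p under 0.05 became 3 with the methods' t-test, 0 of 2 tested with the higher filter, and 3 to 5 leaving out each mouse. The array pair as a block changed no adjusted count. Each pair holds all 3 groups. Depth limits the SN most: 7779 UMIs in the shallowest column.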
